A study of Populus tremula x Populus alba with 64 samples.

Results

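Polygalacturonases were represented here by 3 genes, 7459926, 7497216 and 7492392, out of 37173 gene identifiers (62007 rows, some genes having several transcript rows) in the count lists. They carry that annotation in a supplementary table of the study, and they were chosen by their CPM (read counts scaled to library size) in AE-treated and control-AE 11-day roots, which had been seen to differ, 7459926 in one direction and the other pair in the other. That contrast is therefore given below as values without a test. Each gene has 1 row. Gene 7459926, annotated polygalacturonase, lies on the plus strand of RefSeq sequence NC_037291.1 from 15381285 to 15383147 and has 4 exons with 1537 exon bases. Gene 7497216, annotated probable polygalacturonase, lies on the plus strand of NC_037286.1 from 12262818 to 12265166, with 6 exons and 1655 bases. Gene 7492392, annotated polygalacturonase At1g48100 after an Arabidopsis locus, lies on the minus strand of NC_037294.1 from 7243002 to 7246916, with 7 exons and 1951 bases. It shares 107 exon bases with gene 112329016 on the opposite strand, which had 8 to 61 counts per library (median 31), against 159 to 6096 for 7492392. Whether reads were counted by strand is not given in the sources, so reads of the overlap cannot be told apart.

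Polygalacturonases are secreted enzymes that cut homogalacturonan, the unbranched backbone of pectin, between galacturonic acid residues. Pectin methylesterases usually act first, since removal of methyl groups opens the chain to the cut. The family is known for softening fruit, for letting pollen tubes grow and for separating cells at abscission zones. Some members act in expanding organs and in the tissue that a young lateral root passes through, and auxin is known to regulate several of them. Poplars, like other plants, carry many such genes.

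The plants were rooted leafy cuttings of 1 hybrid poplar clone, Populus tremula × P. alba INRA 717-1B4, whose cut base had been dipped in rooting powder. Leaves were sprayed with auxin enhancers (AE, 3 µM NAA with 4.5 µM IBA), with the auxin inhibitor NPA (AI, 100 µM), or with 1 N KOH as control. Per the methods, AE and AI were themselves prepared in 1 N KOH. Each treatment had its own control (control-AE, control-AI). The methods describe spraying repeated over the 11 days with rising volumes, and do not describe the 24-hour harvest. Roots and stems were taken after 24 hours or 11 days, which gives 16 groups and 64 RNA-seq libraries. The labels do not state that libraries of a group came from separate plants, so p-values measure the spread between these samples, and a single clone gives no spread between genotypes. Times of harvest differ also in how long spraying went on and in whatever else changed between them. These cannot be told apart from the time since the first spray.

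Of the 64 libraries, 50 held at least 1000000 counts (3947526 to 21094004) and were used, with 2 to 6 per group, while the 14 others held at most 545250. Depth labels and measured depths disagreed for 2 of the control-AE 11-day root libraries, and the measured depth was followed. The tissue labels were checked with 8 annotated genes of photosynthesis. Their summed level was 10.8 to 108 CPM in the 28 roots (median 35.2) and 1014 to 2602 CPM in the 22 stems (median 1589), and none of the 8 was at 0 over the roots. In the control-AE 11-day roots that sum was 16.4, 15.3 and 90.6 CPM, and its part in the results was not tested.

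The 3 genes stood at very different levels. Per kilobase of exon, the median over the 50 libraries was 221 CPM per kb for 7497216, 38.2 CPM per kb for 7492392 and 1.74 CPM per kb for 7459926. In raw reads, 7459926 had only 5 to 180 counts per library, so its values carry the largest counting error, while 7497216 had 1289 to 12543. In bulk tissue, fewer cells of a type and less RNA per cell cannot be told apart.

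Gene 7497216 stood highest in stems. Its group means ran from 159 CPM ± 21.2 (SD, n = 3) in control-AI 24-hour roots to 692 CPM ± 380 (n = 5) in AE 11-day stems, and the 4 highest groups were stems. The next was the control-AE 11-day root group at 568 CPM ± 95.9 (n = 3). Gene 7459926 also stood higher in stems, with 8 of the 9 highest group means, from 5.46 CPM ± 2.25 (n = 3) in control-AI 11-day stems down to 0.80 CPM ± 0.46 (n = 3) in control-AE 11-day roots. The AE 11-day roots, at 4.46 CPM ± 3.87 (n = 6), were the root group among those 9. For 7492392 the 4 highest groups were the 11-day roots, led by control-AE at 262 CPM ± 64.2 (n = 3), and the lowest was AE 24-hour stems at 35.5 CPM ± 11.8 (n = 3). Groups that follow each other in these orders had overlapping libraries in 15 of 15 neighbouring pairs for 7459926 and 7497216, and in 14 of 15 for 7492392. The single gap was between control-AE and AI 11-day roots of 7492392.

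**Figure D1:**
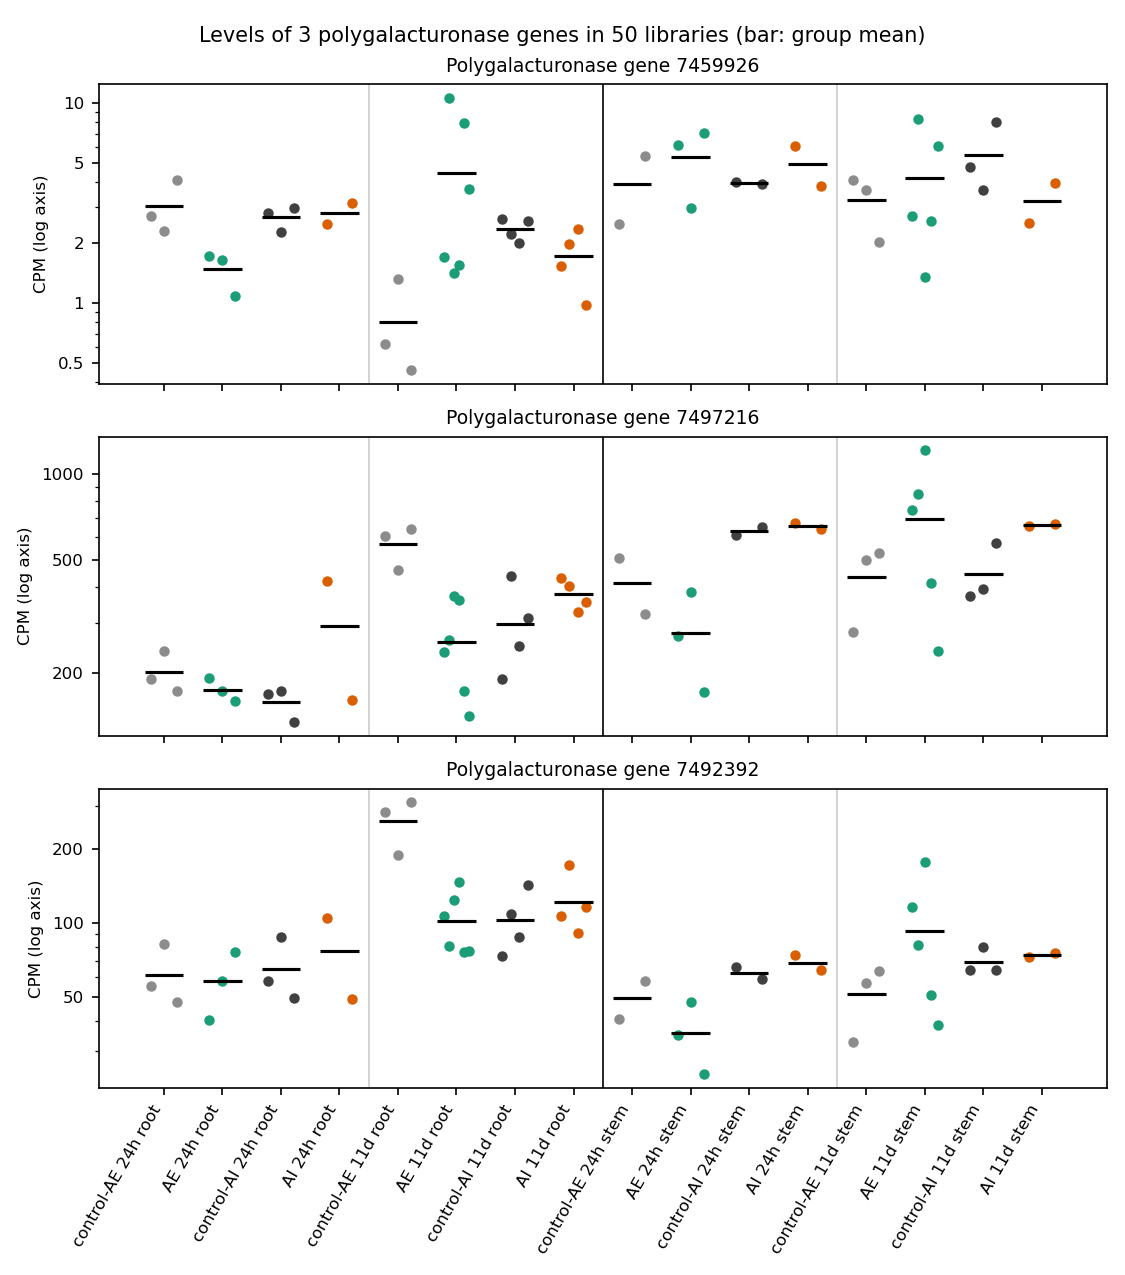
CPM per library (points, log axis) of the 3 genes in the 16 groups, roots left and stems right of the black line, with 24 h before 11 d within each tissue, and the group mean as a bar. Control-AE 11-day roots hold the lowest mean of 16 for 7459926 (0.80 CPM) and the highest for 7492392 (262 CPM), and the 6 AE-roots of 7459926 spread from 1.41 to 10.5 CPM.

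In 11-day roots, the contrast that chose the genes, 7459926 was at 0.62, 1.32 and 0.46 CPM in control-AE (5, 27 and 9 counts) and at 1.68, 10.5, 1.41, 1.55, 7.89 and 3.69 CPM in the 6 AE-roots. All AE-roots lay above the controls, 3 of them close to the highest control and the 3 others well above it. The ratio of means was 5.57, and over all 25207 rows 1.31% had AE libraries that were all higher than the controls. For 7497216, control-AE roots had 604, 459 and 641 CPM, and AE-roots had 236, 261, 373, 360, 173 and 141 CPM. Gene 7492392 stood at 285, 190 and 312 CPM in control-AE and at 107, 80.6, 124, 148, 75.9 and 76.9 CPM in AE-roots. Both were lower in every AE-root than in every control, 2.21-fold and 2.57-fold by the means, where 1.2% of rows were lower without overlap.

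The other 11-day roots show where the control-AE values lie. Gene 7459926 had 2.63, 2.21, 1.99 and 2.55 CPM in control-AI and 1.53, 1.96, 2.34 and 0.98 CPM in AI-roots. The highest of the 3 control-AE roots was thus above 1 of these 8 roots and below the other 7, while 3 of the 6 AE-roots exceeded all 8. Gene 7497216 had 191, 440, 248 and 313 CPM in control-AI and 431, 402, 327 and 355 CPM in AI-roots, all under the lowest control-AE root. Gene 7492392 had 73.5, 109, 87.4 and 144 CPM in control-AI and 107, 172, 91.2 and 116 CPM in AI-roots, again all under control-AE. The share of all rows with such an order was not computed. For these 2 genes the 3 control-AE roots used lay above all other 11-day roots used, and the AE-roots overlapped control-AI. Since the choice of genes rested on the control-AE and AE-roots, this is a description. The control-AE 11-day roots too shallow to be used lay lower for both genes, with values given at the end. Control-AE and control-AI were sprayed with the same solution, and no test was made because the control-AE roots chose the genes.

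Where the genes are expressed was tested on libraries that the choice did not use. At 11 days, 7459926 and 7497216 were lower and 7492392 was higher in root than in stem. Over the AI and control-AI arms, 7459926 had 0.98 to 2.63 CPM in 8 roots (median 2.10) and 2.50 to 7.98 CPM in 5 stems (median 3.98), and 2 roots passed the lowest stem. The log2 fold change of root over stem was -1.11 (SE 0.23, adjusted p = 0.00114, edgeR). Gene 7497216 had 191 to 440 CPM in roots (median 341) and 374 to 666 CPM in stems (median 571), a log2 fold change of -0.70 (SE 0.17, adjusted p = 0.0031, edgeR). Gene 7492392 had 73.5 to 172 CPM in roots (median 108) and 64.3 to 80.1 CPM in stems (median 73.0), with a log2 fold change of 0.63 (SE 0.18, adjusted p = 0.00825, edgeR). The calls came to 3 of 3, where 55.1% of all 26030 rows were called, 27.4% higher and 27.7% lower in root, so being called sets the genes little apart from other rows.

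At 24 hours, over all 4 arms, the direction was the same for the 2 genes lower in root. Gene 7459926 had 1.08 to 4.11 CPM in 11 roots (median 2.46) and 2.47 to 7.05 CPM in 9 stems (median 4.00), a log2 fold change of -0.91 (SE 0.20, adjusted p = 0.000575, edgeR). Gene 7497216 had 134 to 422 CPM in roots (median 173) and 172 to 669 CPM in stems (median 507), and fell by 1.22 on the log2 scale from stem to root (SE 0.17, adjusted p = 5.87e-06, edgeR). Apart from 1 AI-root at 422 CPM, its roots stayed at or under 239 CPM. Gene 7492392 had 40.0 to 105 CPM in roots (median 58.1) and 24.1 to 73.8 CPM in stems (median 58.1), and was not called (log2 0.30, SE 0.18, interval -0.05 to 0.66, adjusted p = 0.144, edgeR). Without AI 24-hour root replicate 3 it was called (adjusted p = 0.0432). The background was 68.2% of 26056 rows called, 33.7% higher and 34.5% lower.

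The balance of the 2 strongly expressed genes separated the tissues in every library. The per-kilobase ratio of 7497216 to 7492392 was 2.33 to 5.65 in 24-hour roots (median 3.51) and 2.16 to 4.76 in 11-day roots (median 2.87). In stems it was 6.56 to 14.7 at 24 hours (median 10.7) and 5.80 to 12.3 at 11 days (median 9.73). Root and stem ranges did not overlap, although the level ranges of each gene did. This was noticed in the values and is given with no test. Other gene pairs were not compared, so how common such a separation is remains unknown. The 11-day roots include those that chose the genes.

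No gene differed between the times by the adjusted test. In roots of the AI and control-AI arms, 7497216 went from a median of 169 CPM at 24 hours (134 to 422, n = 5) to 341 CPM at 11 days (191 to 440, n = 8), a log2 difference of 0.64 (SE 0.23, adjusted p = 0.219, edgeR). Gene 7492392 went from 58.2 CPM (48.9 to 105) to 108 CPM (73.5 to 172), a log2 difference of 0.67 (SE 0.23, adjusted p = 0.214, edgeR). Gene 7459926 went from 2.80 CPM (2.25 to 3.15) to 2.10 CPM (0.98 to 2.63), with a log2 difference of -0.46 (SE 0.19, adjusted p = 0.29, edgeR). All 3 had an unadjusted p under 0.05, as did 15.2% of the rows, while edgeR called 0.207% of 24610 and DESeq2 588 rows. AI 24-hour root replicate 2 weighed on the first: at 422 CPM it lay far above the other 24-hour roots, it was also the highest for 7492392 (105 CPM), and without it 7497216 was called (log2 1.07, adjusted p = 0.0292, edgeR). Its summed photosynthesis genes, at 45.7 CPM, were inside the range of the roots.

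In stems over all 4 arms, the median of 7497216 was 507 CPM at 24 hours and 527 CPM at 11 days, that of 7492392 was 58.1 and 64.5 CPM, and that of 7459926 was 4.00 and 3.67 CPM. None was called by edgeR (log2 0.23, 0.43 and -0.18 in that order), where 3.58% of 25074 rows were. The change of the root-to-stem difference between the times was 0.89 for 7497216 (SE 0.31, adjusted p = 0.677, edgeR), 0.54 for 7492392 and -0.41 for 7459926, with 1 row in 26590 called (0.00376%). DESeq2 called none of the 3 genes for a time or for the change between times.

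**Figure D2:**
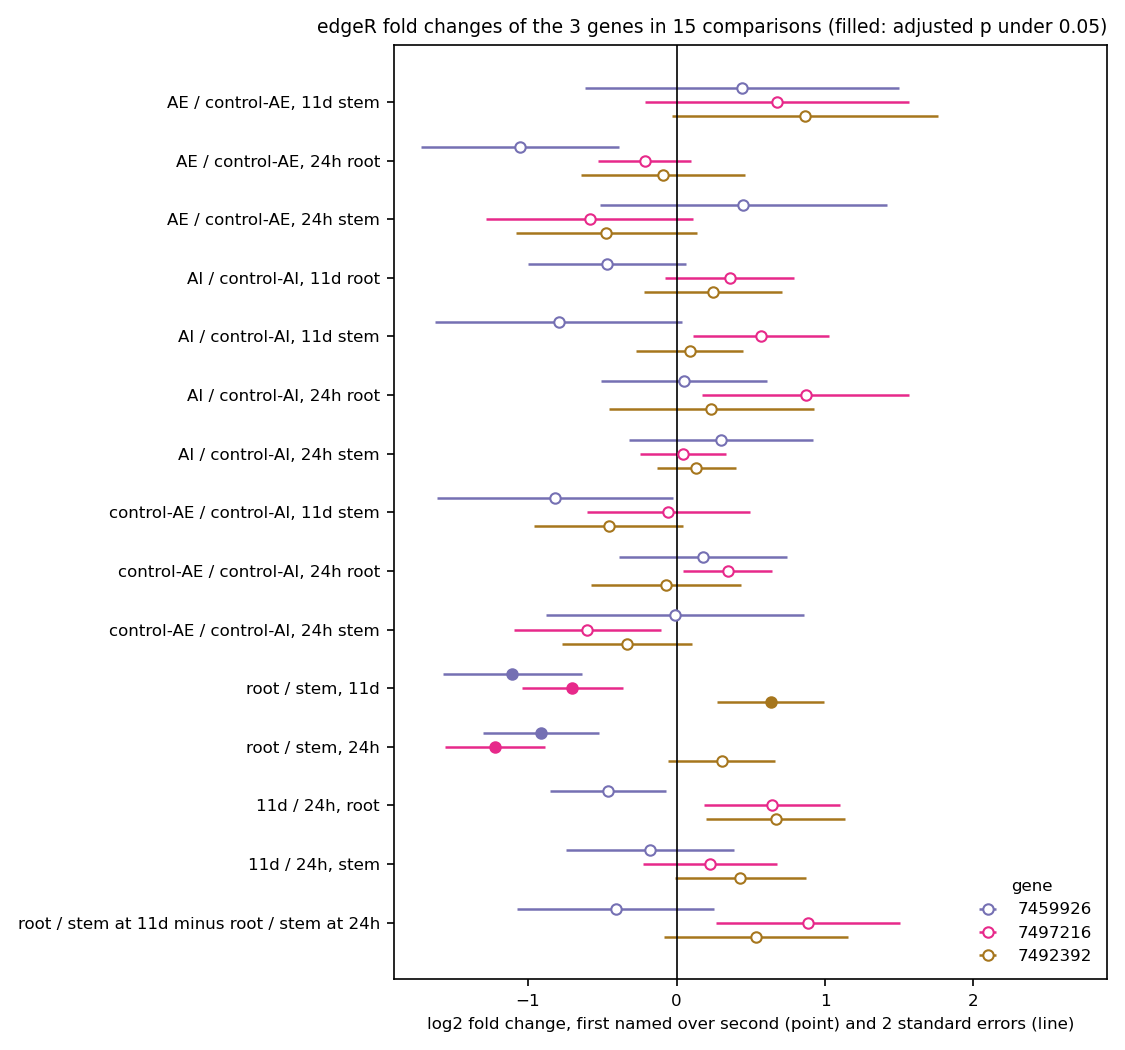
edgeR log2 fold changes of the 3 genes in 15 comparisons (first named over second), with lines of 2 standard errors and filled points where the adjusted p was under 0.05. Only the root to stem differences hold filled points, 5 of 6, and the treatment comparisons run from -1.06 to 0.87.

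The treatments were compared with their controls in the 7 combinations of tissue and time that the choice left free. None of the 21 tests was called by edgeR or by DESeq2, and 3 had an unadjusted p under 0.05. DESeq2 gave no adjusted p for 7459926 in 24-hour roots. The intervals of 2 standard errors reach from -1.72 to 1.76 on the log2 scale.

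Under AE, 24-hour roots of 7459926 had 1.71, 1.63 and 1.08 CPM against 2.71, 2.29 and 4.11 CPM in control-AE. The AE-roots were all below the controls, the reverse of their order at 11 days. The log2 fold change was -1.06 (SE 0.33, unadjusted p = 0.0137, adjusted p = 1.0, edgeR), on 12 to 42 counts per library, and 3.69% of 22107 rows were lower without overlap. EdgeR called no row there (0%), 3.65% passed 0.05 before adjustment, and 14 were called by DESeq2. In the same roots 7497216 had 192, 173 and 159 CPM under AE and 190, 239 and 173 CPM in control-AE, and 7492392 had 40.0, 58.1 and 76.4 CPM against 55.1, 82.1 and 47.8 CPM. The libraries of both overlapped (log2 -0.21, SE 0.16 and -0.09, SE 0.28).

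The AE 11-day stems varied widely. Gene 7497216 had 746, 851, 1209, 413 and 240 CPM in the 5 AE-stems and 279, 497 and 527 CPM in control-AE (log2 0.68, SE 0.44). Gene 7492392 had 116, 81.7, 178, 50.9 and 38.3 CPM in the AE-stems and 32.7, 56.8 and 63.9 CPM in control-AE (log2 0.87, SE 0.45). The stems that were high or low in one were so in the other, replicate 4 being the highest and replicate 6 the lowest for both. Gene 7459926 had 2.71, 8.33, 1.34, 2.56 and 6.06 CPM against 4.11, 3.67 and 2.02 CPM (log2 0.44, SE 0.53), with replicate 4 its lowest stem. All 3 adjusted p were 1.0, and of 23395 rows edgeR called 0%, with 3.66% under 0.05 before adjustment and 12 called by DESeq2.

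In AE 24-hour stems the replicates fell in opposite orders. Gene 7497216 had 270, 385 and 172 CPM and 7492392 had 34.9, 47.6 and 24.1 CPM, with the third stem lowest in both. Gene 7459926 had 6.12, 2.96 and 7.05 CPM, with that stem highest. Their controls had 507 and 323 CPM, 40.6 and 58.1 CPM, and 2.47 and 5.38 CPM, and the log2 differences of -0.59 (SE 0.35), -0.47 (SE 0.30) and 0.45 (SE 0.48) were within the spread. Of 23077 rows edgeR called 0%, with 3.54% under 0.05 before adjustment and 43 called by DESeq2.

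Under AI, 11-day stems of 7497216 had 655 and 666 CPM against 374, 394 and 571 CPM in control-AI. Both AI-stems were above all controls, as were those of 13.7% of 23613 rows. The log2 fold change was 0.57 (SE 0.23, unadjusted p = 0.0418, adjusted p = 0.529, edgeR), and 3 rows in all were called (0.0127%, with 9.02% under 0.05 before adjustment). DESeq2 called 352 rows there, edgeR called 230 with no filter and 247 in the joint fit of the 16 groups, and 7497216 was in none of these calls. In AI 24-hour roots the gene had 422 and 161 CPM against 169, 173 and 134 CPM (log2 0.87, SE 0.35, unadjusted p = 0.0398, adjusted p = 0.707, edgeR). The difference lay in the first AI-root, and it was -0.0081 on the log2 scale without that library. At 11 days the roots listed above gave log2 0.36 (SE 0.22), and 24-hour stems, with 669 and 638 CPM against 608 and 653 CPM, gave 0.04 (SE 0.14).

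The AI and control libraries of 7492392 and 7459926 overlapped in all 4 combinations of tissue and time. Gene 7492392 had 73.0 and 75.2 CPM against 64.5, 80.1 and 64.3 CPM in 11-day stems, 73.8 and 64.1 CPM against 66.0 and 59.0 CPM in 24-hour stems, and 105 and 48.9 CPM against 58.2, 87.5 and 49.4 CPM in 24-hour roots. The log2 differences were 0.09 (SE 0.18), 0.13 (SE 0.13) and 0.23 (SE 0.34), and 0.24 (SE 0.23) in 11-day roots. Gene 7459926 gave -0.47 (SE 0.27) in 11-day roots, -0.79 (SE 0.42) in 11-day stems from 2.50 and 3.98 CPM against 4.75, 3.65 and 7.98 CPM, 0.05 (SE 0.28) in 24-hour roots from 2.46 and 3.15 CPM against 2.80, 2.25 and 2.99 CPM, and 0.30 (SE 0.31) in 24-hour stems from 6.05 and 3.85 CPM against 4.00 and 3.94 CPM. For AI in 11-day roots, 24-hour roots and 24-hour stems, 0% of rows were called by edgeR and 0 by DESeq2, and 3.89%, 7% and 1.55% passed 0.05 before adjustment.

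The 2 control arms, alike in their spray, were compared with no treatment between them. Per the study, AE and AI were run independently of each other. Whatever differed between these runs cannot be told apart here, so the values are no yardstick for treatment within a run. In 24-hour roots 6.56% of 22241 rows were called between control-AE and control-AI, and 25.1% passed 0.05 before adjustment, more than in any of the 7 treatment comparisons. None of the 3 genes was among them: 7497216 had 190, 239 and 173 CPM in control-AE and 169, 173 and 134 CPM in control-AI (log2 0.34, SE 0.15, adjusted p = 0.2, edgeR). The lowest control-AE root just passed the highest control-AI root, as in 15.1% of rows. In 24-hour stems the same gene had 507 and 323 CPM against 608 and 653 CPM (log2 -0.60, SE 0.25, adjusted p = 0.764, edgeR), where 18.3% of rows were lower without overlap, and 7492392 had 40.6 and 58.1 CPM against 66.0 and 59.0 CPM (log2 -0.33, SE 0.22). In 11-day stems 7492392 had 32.7, 56.8 and 63.9 CPM against 64.5, 80.1 and 64.3 CPM (log2 -0.46, SE 0.25), again without overlap, as in 3.36% of rows. Both comparisons of stems had 0% of rows called by edgeR, with 15 called by DESeq2 at 11 days and 133 at 24 hours, and 3.18% and 6.49% under 0.05 before adjustment. The 9 tests of control arms ran from -0.82 to 0.34 on the log2 scale, none was called by edgeR or DESeq2, and 0 had an unadjusted p under 0.05.

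The copy of the study's table used here names 1998 of the 62007 rows, ordered by the study's own p in 11-day AE-roots, and lists 6 more polygalacturonase genes. They are counted only in comparisons other than that one. In root against stem, where 27.7% of all rows were lower at 11 days and 34.5% at 24 hours, 3 of the 6 were lower at both times: 18102624 (log2 -1.37 at 11 days and -2.10 at 24 hours), 7469534 (-1.01 and -1.38) and 7469060 (-0.97 and -1.32). Gene 7466847 was called higher in root at both times, with 1 to 122 counts in roots and 0 to 3 counts in stems, so that its fold is not given. Gene 7460486 was called higher in root at 24 hours and not at 11 days, and the difference between the times, tested over the AI and control-AI arms, was not called (log2 0.95, adjusted p = 0.0453, against 0.29 with adjusted p = 0.665 at 11 days, edgeR), and 7498233 was called at neither. With the 3 genes chosen, the 9 thus held stem-leaning and root-leaning members. In the 7 treatment comparisons none of the 6 was called. Between control arms 7460486 was higher in control-AE 24-hour roots (log2 2.07, SE 0.50, adjusted p = 0.0475, edgeR), where 2.54% of 22241 rows were called higher.

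**Figure D3:**
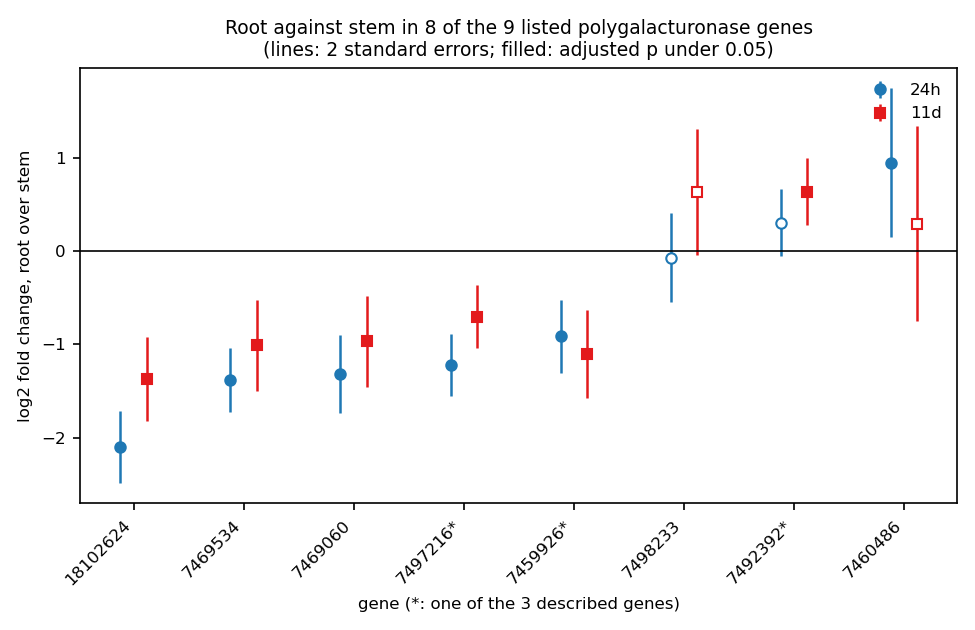
Root over stem log2 fold changes (edgeR) of 8 of the 9 listed polygalacturonase genes at 24 h (circles) and 11 d (squares), with lines of 2 standard errors and filled symbols where the adjusted p was under 0.05, and 7466847 left out for its stem counts of 0 to 3. The 5 genes called below 0 at both times include 7497216 and 7459926, and 7492392 lies above 0, called at 11 d with 0.63.

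Other pectin genes of the table also split by tissue. Of 5 rows named pectinesterase or its inhibitor, 4 were lower and 1 higher in root at both times (median log2 -0.60 at 11 days and -0.72 at 24 hours, against -0.01 over all rows at each). With 55.1% and 68.2% of all rows called, split about evenly by direction, counts as small as these and those that follow are read as description. Probable pectinesterase 53 (18107673), of the class that demethylates pectin, was the one higher (log2 1.06 at 24 hours). Pectinesterase inhibitor 7 (7482899) was lower (-1.46 at 11 days). Both rows of pectin acetylesterase 8 (18098411), which removes acetyl groups from pectin, were lower in root (-0.65 and -1.18 at 11 days). Probable galacturonosyltransferase-like 7 (7478857), of a family tied to pectin synthesis, was higher (1.85). Of wall-loosening genes, 1 of 3 expansin rows was higher and 1 lower at each time, and 2 of 5 xyloglucan endotransglucosylase rows were higher and 2 lower. None of these rows was called for a treatment. In 24-hour roots, 2 of the 5 xyloglucan endotransglucosylase rows were called lower in control-AE than in control-AI, where 4.02% of 22241 rows were.

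Each of the 3 genes had another polygalacturonase gene at or near the top of 22744 rows ranked by the likeness of their levels, measured as Pearson's r of log2 CPM over the 50 libraries. The libraries share depth, tissue and the 11-day roots that chose the genes, so r is a description. Names were at hand only for the 1998 rows ordered by the study's p in 11-day AE-roots. The polygalacturonase genes found alike thus came through that order too. For 7459926 it was 7469534 (r = 0.91), on the minus strand of the same sequence from 15412867 to 15414577, with 29719 bases and 1 gene between them. For 7497216 it was 18102624 (r = 0.93) on NC_037294.1 from 15998389 to 16001187. For 7492392, 7498233 on NC_037292.1 from 6291332 to 6294183 came second (r = 0.84), after the pathogenesis-related protein PR-1 gene 7488992 (r = 0.84). Reads shared between near-identical copies would also raise r, and this was not tested.

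The likeness held within tissues to different degrees. For 7459926 and 7469534, r was 0.97 in 17 11-day roots, 0.54 in 11 24-hour roots, 0.89 in 13 11-day stems and 0.91 in 9 24-hour stems. For 7497216 and 18102624 it was 0.92, 0.78, 0.96 and 0.99 in that order, with a Spearman's rho of only 0.36 in the 24-hour roots. For 7492392 and 7498233 it was 0.92, 0.66, 0.58 and 0.84. In the 11-day roots, the contrast that ordered the table and given without a test, 7469534 had 5.48, 6.25 and 4.29 CPM in control-AE and 7.95, 69.1, 8.67, 9.15, 45.7 and 20.4 CPM under AE. The 3 AE-roots high in 7459926 were the 3 high in 7469534, at a level several times greater.

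**Figure D4:**
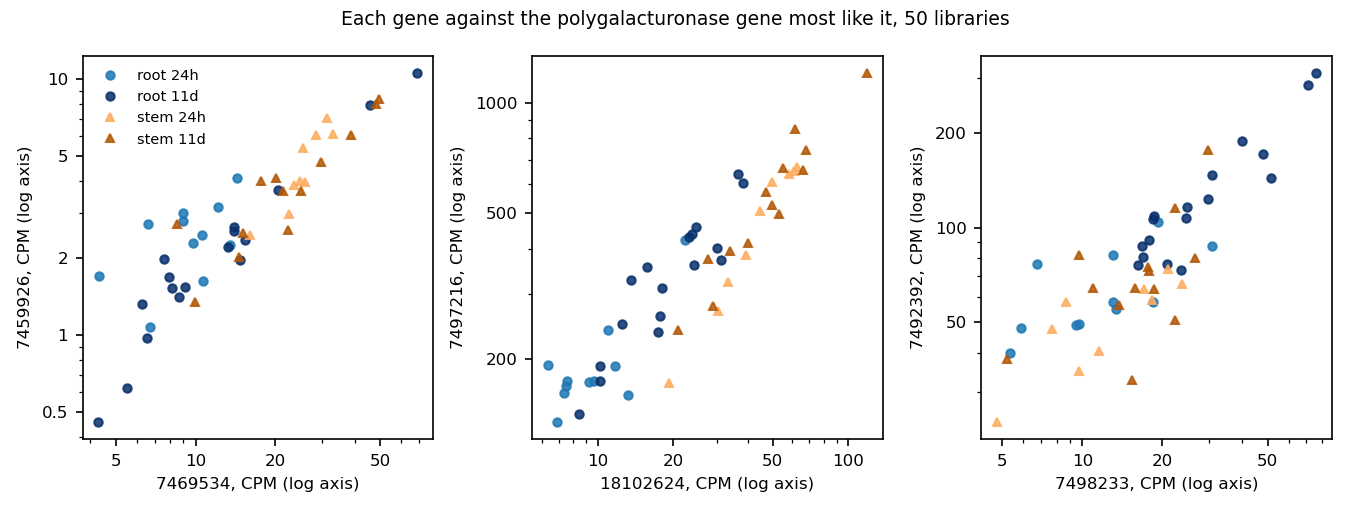
CPM of each gene against the polygalacturonase gene most like it in 50 libraries (both axes log), roots as circles and stems as triangles, paler at 24 h. Pearson's r of the log2 values is 0.91 for 7459926, 0.93 for 7497216 and 0.84 for 7492392, whose points scatter most.

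Next in likeness to 7459926 came 18097063 (r = 0.75), the endoglucanase CX gene 7467035 and the probable GH3.1 gene 18101160, whose product joins auxin to amino acids (r = 0.68 each), and 7488140 (r = 0.63). To 7497216 they were 18107240, annotated major pollen allergen Ole e 1 (r = 0.88), 18095018 (r = 0.88), 7472097 (r = 0.86) and the aspartyl protease AED3 gene 7467196 (r = 0.86). To 7492392 they were the peroxidase 19 gene 7476360 (r = 0.82), 18101809, annotated E3 ubiquitin-protein ligase LIN-1 (r = 0.77), and the 36.4 kDa proline-rich protein gene 7453712 (r = 0.77).

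Among themselves, 7497216 and 7492392 had an r of 0.41 over the 50 libraries, 0.85 in 11-day roots, 0.88 in 11-day stems and 0.87 in 24-hour stems (Spearman's rho 0.33, 0.84, 0.80 and 0.87). In 24-hour roots r was 0.62 and rho 0.23, with 1 AI-root the highest in both genes. For 7459926 and 7497216, r was -0.08 over all libraries, -0.72 in 11-day roots, -0.01 in 24-hour roots, -0.33 in 11-day stems and -0.52 in 24-hour stems. For 7459926 and 7492392 it was -0.62, -0.75, -0.27, -0.44 and -0.25 in that order. The 11-day roots hold the groups that chose the genes.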

How the data were processed

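RNA-seq of polyadenylated RNA was available as 64 lists of counts. As deposited by the authors, each list gives, per transcript or gene row, an unnormalized whole-number count. Per the labels and the study's methods, reads were aligned with STAR to a Populus trichocarpa genome and counted with featureCounts of Subread (tool versions and strand setting: not given in the sources used here). The methods name a Phytozome genome release, while the files carry RefSeq sequence names, so positions are given as the files have them and their build is uncertain. Libraries with at least 1000000 counts were kept (50 of 64). CPM used TMM-scaled library sizes, and 0.5 was added before taking log2. Comparisons were fitted over all rows with edgeR 4.0.16 (quasi-likelihood test, filterByExpr at 10 counts and 15 in total, R 4.3.3). The threshold was 0.05 after Benjamini-Hochberg adjustment. Standard errors are the absolute log2 fold change over the square root of F. Tissue and time contrasts average the arms. Alternatives were DESeq2 1.42.0, other scalings, no filter, other library sets, a joint fit, sums per gene, the replicate number as a block and each library left out. The fits were tested on simulated data. Named were the 3 genes, called genes of the annotated lists and, per gene, the 5 rows most alike among those with a mean of at least 1 CPM. Genes, lists and tests were chosen with earlier results of these data known. No reference sequence or annotation was used here. Tables and plots used Python 3.11.15, pandas 2.3.3 and matplotlib 3.10.9. One 24-hour AE-root has no number in its title and was named replicate 3.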

Additional observations from a re-analysis of the deposited data

Results flagged for a closer look

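The AE and control-AE roots of 7459926 stood in opposite orders at the 2 times, though neither order is a test result. In 24-hour roots each AE library was below each control-AE library (log2 -1.06, adjusted p = 1.0, edgeR), which was not called, whereas in 11-day roots, the contrast that chose the gene, each AE library was above each control-AE library (2.48 as log2 of the ratio of means). The difference between the times was not tested, since the second contrast was used to choose the gene. In 12 gene and group pairs with 4 to 6 libraries, no library stood far enough from the rest to be marked.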

How the results depend on the processing

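Over the alternatives other than leaving out a library, 393 of 405 gene values kept direction and side of the threshold, 4 gained a call and 8 changed sign. The root and stem calls held under all of them. With the replicate block, 2 genes were called for AE in 11-day stems (7497216, log2 1.30, adjusted p = 3.04e-05, and 7492392, 1.64 and 9.16e-08, edgeR), with 704 rows called against 0. Over 39 same-numbered pairs, deviations correlated at -0.32 to 0.32, and in no comparison with 3 or more pairs did all exceed 0.1. With 2 pairs each, they did in AI 24-hour roots (0.11 and 0.19) and AI 24-hour stems (0.31 in both). AE 11-day stems had only 2 pairs (-0.17 and 0.14). So few pairs cannot decide whether the numbers pair the samples. The block could not be fitted for AI in 11-day stems and for control arms in 24-hour stems. For 11-day against 24-hour roots, all 4 arms gave 2 called genes (0.84 for 7497216 and 1.06 for 7492392), with the roots that chose the genes included. There 5933 of 25790 rows were called, against 51 of 24610 in the AI and control-AI arms alone. Leaving out each library of those arms gave 0 to 1 called genes. Signs changed, all near 0 except the first, under the block for 7459926 (AE, 11-day stems, -0.60) and 7492392 (root to stem, 24 hours, -0.0067), under total counts for 7459926 (AI 24-hour roots, -2.70e-05, and control arms in 24-hour stems, 0.0011) and 7497216 (control arms in 11-day stems, 0.014), and over all 64 libraries for 7497216 (AI 24-hour stems, -0.079, and control arms in 11-day stems, 0.052) and 7459926 (control arms in 24-hour stems, 0.036). The cause was not tested. With each library left out, 424 of 441 values kept direction and side of the threshold, 2 gained a call and 15 changed sign, all between groups of 2 or 3. For 7459926 the ranges were -0.020 to 1.13 (AE 24-hour stems), -0.13 to 0.19 (AI 24-hour roots), -0.039 to 0.58 (AI 24-hour stems), -0.11 to 0.34 and -0.69 to 0.46 (control arms, 24-hour roots and stems). For 7492392 they were -0.34 to 0.17 (AE), -0.44 to 0.69 (AI) and -0.33 to 0.19 (control arms), all in 24-hour roots. For 7497216 they were -0.0081 to 1.41 (AI 24-hour roots), -0.025 to 0.11 (AI 24-hour stems) and -0.23 to 0.18 (control arms, 11-day stems). Counts of 5 to 180 per library limit 7459926 most.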

Other observations

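The 14 libraries with at most 545250 counts entered no comparison except the alternative fits over all 64 libraries. Gene 7459926 had 0 or 1 count in them and was at 0 in 8, so its level cannot be read there. Gene 7497216 had 24 to 169 counts (200 to 537 CPM, median 401) and 7492392 had 4 to 35 counts (27.5 to 144 CPM, median 66.6). Both were inside their ranges over all deeper libraries, roots and stems together. Within 11-day roots, however, 7492392 was lower in the shallow libraries. The shallow AI-root had 27.5 CPM (95% Poisson interval 8.93 to 64.2), where the deeper 11-day roots had 73.5 to 312 CPM. The shallow control-AE 11-day roots, replicates 1 and 3, had 269 and 200 CPM of 7497216 (95% Poisson intervals 191 to 368 and 128 to 297). For 7492392 they had 34.5 and 66.6 CPM (11.2 to 80.6 and 28.7 to 131). Both genes thus lay under the lowest control-AE 11-day roots that were used, 459 and 190 CPM. The reason was not tested.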
